A study of Mus musculus with 12 samples.

Results

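At embryonic day 14.5 the mesenchyme of the mouse bladder and that of the pelvic urethra below it were compared by RNA sequencing, gene by gene, to find what each compartment of the lower urinary tract expressed. The comparison rests on 6 of the 12 libraries of the study, namely 3 of bladder mesenchyme and 3 of urethral mesenchyme. The others were made in the same way at E18.5. They entered the low-count filter, the scaling between libraries and the estimate of the spread between replicates. All embryos were untreated wildtype females of the outbred CD-1 stock. Both groups were separated from their epithelium with cold trypsin, DNase and forceps, and the tissue of all female embryos of a litter was pooled, so that each library averages several animals. The study used 3 independent litters at this age, each of which gave bladder and urethral tissue, but which libraries share a litter is not given. Members were chosen by sample and not by value: every gene that passed a filter on low counts was tested, which left 18805 of the 55228 genes of the count tables. That filter used all 12 libraries, so some genes may have passed through E18.5, and 17366 genes were tested with the 6 libraries alone.

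The bladder and the pelvic urethra both form around the urogenital sinus, a derivative of the cloaca. Their mesenchyme surrounds an epithelium of endodermal origin and gives rise to smooth muscle, to the connective tissue of the lamina propria and to the outer adventitia. In the bladder the muscle becomes the detrusor, whose cells need myocardin and serum response factor to switch on contractile genes, while the mesenchyme of the urethra lies next to the genital tubercle and is crossed by the nerves and ganglia of the pelvic plexus.

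The 6 libraries held between 21495169 and 34221907 counts, and counts are given below as CPM, counts relative to library size, scaled by the trimmed mean of M values. The first principal component of the 6 libraries held 56.1% of the variance and separated the compartments, with bladder replicate 1 at -31.4 against -75.1 and -75.5 for bladder replicates 2 and 3, and the urethral libraries between 58.7 and 63.5. The second held 16.3% and separated replicate 1 of each group, at 61.4 for bladder and 29.9 for urethra, from the other libraries, which lay between -27.6 and -16.3. Bladder replicate 1 therefore stood apart from its group, and with it the summed level of several markers of other cell types. The 26 markers of epithelium summed to 1882 CPM in bladder replicate 1 against 548 and 340.1 in replicates 2 and 3, and those of skeletal muscle to 797 against 281 and 225. The 11 mesothelial markers summed to 1038 against 258 and 484, and the 18 neuron markers to 1060.0 against 357 and 494. Urethral replicate 1 was likewise the highest of its group for epithelium (2551 against 1166 and 1384 CPM) and skeletal muscle (352 against 77.4 and 84.1 CPM). Their part in the results was not tested, and values without these libraries are given wherever they changed a call or moved a difference by over 1.5 times. Transcripts of 4 genes of the Y chromosome had at most 4 counts in any of the 6 libraries.

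Genes higher in bladder and genes higher in urethral mesenchyme were nearly equal in number. With edgeR's quasi-likelihood test and an adjusted p under 0.05, 12.4% of tested genes were called on the bladder side and 12.5% on the urethral side, and the median difference over all genes was -0.0035 on the log2 scale. Differences below are log2 values, bladder minus urethral, with their standard error. The number of strong differences was unequal: 320 genes were at least 4-fold higher in bladder against 573 in urethral mesenchyme, and 42 against 79 at least 16-fold. Of the 4677 genes called, 4474 had no overlap between the values of the 3 bladder and the 3 urethral libraries, as did 37.74% of all genes tested. The share called was 7.97% and 9.43% in bladder and urethra when the 6 libraries were fitted alone, 11.3% and 14.5% without replicate 1 of both groups, and 12.6% and 10.5% once a trend with transcript length was removed. Of the 4677 calls, 2954 were made in the same direction with the 6 libraries alone and 3797 without replicate 1, and none was made in the opposite direction by any alternative. Among the 18805 genes, leaving out bladder replicate 3 gave 1456 calls for bladder and 1252 for urethra. Class counts with 1 library left out therefore also move with the total. All class counts below are to be read beside the shares of 12.4% and 12.5% over all genes. Exons of Angptl6, Gnas, Hand2, Hopx, Mmp19 and Tbx18, all named below, partly overlap those of a gene on the opposite strand, and the strand setting of the counting is not given in the sources used here, so reads of these genes and their partners cannot be told apart. In bulk tissue, fewer cells of a type and less RNA per cell cannot be told apart.

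**Figure D1:**
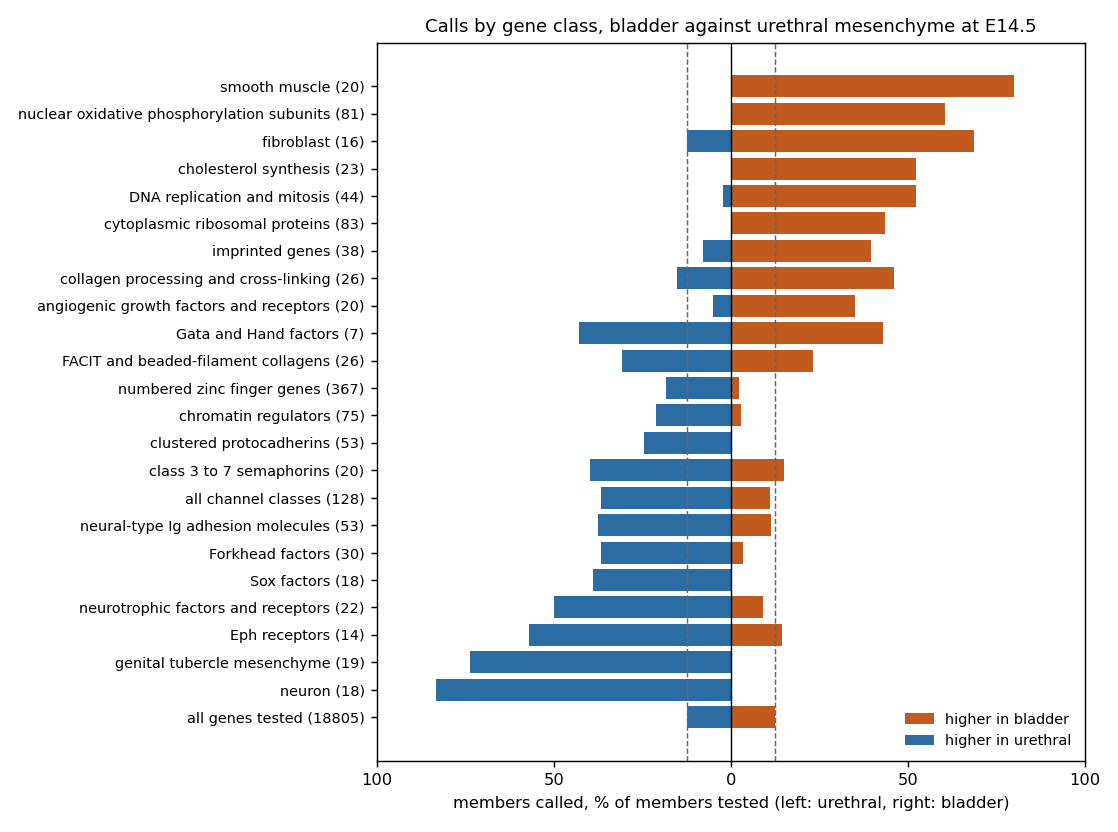
Share of the tested members of each gene class called higher in bladder (right, orange) or urethral mesenchyme (left, blue), in % of members tested, with the number tested in parentheses and dashed lines at 12.4% and 12.5%, the shares over all genes. Smooth muscle, respiratory chain and fibroblast genes lie far to the right, and neuron and genital tubercle genes far to the left.

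Muscle genes set the bladder apart, and those with the steepest differences were genes best known from the heart. Of 20 smooth muscle markers, 16 were higher in bladder and none in urethral mesenchyme, with a median difference of 1.40. That count lay between 12 (without urethral replicate 3) and 17 when 1 library was left out. Popdc2, which encodes a membrane protein that binds cyclic AMP and is abundant in heart muscle, had 98.9, 86 and 80.4 CPM in bladder replicates 1 to 3 and 1.89, 2.59 and 1.03 CPM in the urethral replicates, a difference of 5.56 ± 0.31 (adjusted p = 3.29e-06). Tnnt2, the cardiac form of troponin T, had 339, 314 and 248 CPM in bladder and 17.3, 10.3 and 9.1 CPM in urethral mesenchyme, a difference of 4.62 ± 0.26 (adjusted p = 3.29e-06). In both genes every bladder library lay far above every urethral one, and bladder replicate 1 lay close to the other bladder libraries. For the 22 markers of skeletal muscle, 1 member was higher in bladder and 5 in urethral mesenchyme, with a median difference of -1.35. That median was 0.71 without urethral replicate 1, and only 3 members had no overlap between the groups. Their sum went the other way, with a mean of 435 CPM in bladder and 171 CPM in urethral mesenchyme. This list therefore has no steady direction. The count for urethra fell to 1 without bladder replicate 2, bladder replicate 3 or urethral replicate 1 and was 8 without urethral replicate 2, and that for bladder was 5 without urethral replicate 1.

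A pair of further sarcomere genes was also higher in bladder. Myom1, myomesin of the M-band of striated muscle, had 115, 121 and 80 CPM in bladder and 27.8, 12.4 and 11.7 CPM in urethral mesenchyme (2.61 ± 0.33, adjusted p = 0.000388). Ldb3, a protein of the Z-disc, had 17.6, 11.6 and 9.86 CPM against 3.93, 1.18 and 1.17 CPM, a difference of 2.66 ± 0.49 that was 3.47 without urethral replicate 1. Here bladder and urethral replicate 1 were each the highest of their group, in step with the skeletal muscle markers, and the groups still did not overlap. Smooth muscle and cardiac actin genes both had higher means in bladder, but only the first was called. Acta2, smooth muscle actin, had 2812, 2858 and 2751 CPM in bladder and 1439, 673 and 974 CPM in urethral mesenchyme (1.45 ± 0.26, adjusted p = 0.00204). The cardiac actin gene Actc1 had 385, 122 and 82.4 CPM against 101, 11.1 and 17.3 CPM, which overlapped (2.19 ± 0.81, adjusted p = 0.0713), and passed the threshold without urethral replicate 1 (3.79, adjusted p = 0.00595). Myom1, Ldb3 and the genes of the next paragraph other than Myl9 were chosen after their values were seen.

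A CArG box is the sequence that serum response factor binds, and genes of smooth and heart muscle often carry it close to their start. The 250 bases before the RefSeq start of each gene (build GRCm38.p6) were searched for it on both strands. Of 27025 gene symbols with a promoter, 439 (1.62%) held one. Of the genes higher in bladder 75.3% had a promoter in that table, and of those higher in urethral mesenchyme 70.9%. This is under 80%, so the shares of the 2 sets were not compared. Of the 20 smooth muscle markers 15 had a promoter in the table, of which 1, Myl9, held a match. Among the genes higher in bladder, 46 with a match were read, and the windows of 6 of them are shown, on the strand of the gene with the box in capitals. These were picked with their values known, because they put the motif beside contractile and heart-type genes. The 46 also hold genes of general metabolism such as Aprt, Tyms and Gstp1. A match is a description and not a site shown to be bound.
Myl9 (chr2:156775278-156775337, plus strand): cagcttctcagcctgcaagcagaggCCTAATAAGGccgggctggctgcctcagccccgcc
Hopx (chr5:77115172-77115231, minus strand): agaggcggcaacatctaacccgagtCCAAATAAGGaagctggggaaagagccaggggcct
Myl7 (chr11:5898809-5898868, minus strand): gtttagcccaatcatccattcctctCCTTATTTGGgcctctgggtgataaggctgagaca
Asb2 (chr12:103356031-103356090, minus strand): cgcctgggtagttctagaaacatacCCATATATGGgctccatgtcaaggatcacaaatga
Fbxl22 (chr9:66514781-66514840, minus strand): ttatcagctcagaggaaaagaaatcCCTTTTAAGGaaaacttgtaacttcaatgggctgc
Cnn2 (chr10:79988519-79988578, plus strand): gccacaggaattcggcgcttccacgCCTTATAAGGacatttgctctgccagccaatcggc

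Each of these genes was higher in bladder in every library. Myl9, the regulatory light chain of smooth muscle myosin, had 938, 979.8 and 907 CPM in bladder and 512, 249 and 297 CPM in urethral mesenchyme (1.42 ± 0.24, adjusted p = 0.00159). Hopx, a small homeodomain protein of the heart that does not bind DNA itself, had 35.7, 20.01 and 18.7 CPM against 5.45, 3.11 and 2.94 CPM (2.70 ± 0.36, adjusted p = 0.000529). Myl7, the atrial light chain, was rare, at 4.21, 2.44 and 3.24 CPM in bladder and 0.0756, 0.235 and 0.514 CPM in urethral mesenchyme, and its difference of 3.57 ± 0.55 was 4.29 without urethral replicate 3. The genes for 2 parts of ubiquitin ligases of muscle came next. Fbxl22 had 126, 138 and 119.7 CPM against 35, 24.8 and 39.1 CPM (1.96 ± 0.21, adjusted p = 0.000122), and Asb2 had 59.3, 45.4 and 35.7 CPM against 19.1, 7.09 and 13.5 CPM (1.83 ± 0.32, adjusted p = 0.00222). Cnn2, a calponin that binds actin, had 633, 858 and 855 CPM in bladder and 412, 269 and 329 CPM in urethral mesenchyme (1.22 ± 0.18, adjusted p = 0.00074).

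The factors that control such genes were called about as often as genes at large. Of 18 genes of the myocardin and Mef2 families, serum response factor and their partners, 3 (16.7%) were higher in bladder mesenchyme and 1 (5.56%) in that of the urethra, against 12.4% and 12.5% of all genes. The bladder count was 2 without replicate 2 or 3 of either group and 4 without urethral replicate 1, and the urethral count was 2 without bladder replicate 2. Myocd, myocardin, had 95.5, 206 and 149.5 CPM in bladder and 37.3, 46.3 and 61.8 CPM in urethral mesenchyme (1.64 ± 0.32, adjusted p = 0.00473). Srf, its partner, had 104, 154 and 133 CPM and 77, 65.9 and 89.1 CPM (0.76 ± 0.18, adjusted p = 0.0111). The third, Mef2c, rested on single libraries. Its levels of 50.5, 80.6 and 60.02 CPM against 49, 30.9 and 44.9 CPM gave 0.62 ± 0.19 (adjusted p = 0.0326), and the call was lost without bladder replicate 2 (0.41, adjusted p = 0.142), bladder replicate 3 (0.66), urethral replicate 2 (0.44) or urethral replicate 3 (0.68). Bladder replicate 1 was the lowest bladder library for Myocd, Srf and Mef2c.

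Gata and T-box factors split between the compartments by member. Of 7 Gata and Hand genes tested, 3 were higher in bladder mesenchyme and 3 in that of the urethra. The lowest counts were 2 for bladder (without bladder replicate 2 or 3, or urethral replicate 1 or 3) and 1 for urethra (without bladder replicate 2 or 3, or urethral replicate 1). Gata6, which acts early in endoderm and heart and in smooth muscle, had 184, 245 and 229.5 CPM in bladder and 20.2, 61.3 and 29.8 CPM in urethral mesenchyme (2.56 ± 0.34, adjusted p = 0.000526). Gata2, known from blood and from the urogenital tract, went the other way, with 159, 67.8 and 77.2 CPM against 209, 273 and 276 CPM (-1.32 ± 0.28, adjusted p = 0.00628). Hand2, a bHLH factor of the heart and limb, had 102, 105 and 104 CPM against 69.5, 68.3 and 88.6 CPM, which did not pass the test (0.46 ± 0.19, adjusted p = 0.0945) although the groups did not overlap. Among 12 T-box genes, 2 (16.7%) were higher in bladder, whichever library was left out, and 3 (25%) in urethral mesenchyme. The urethral count was 2 without bladder or urethral replicate 3 and 5 without bladder replicate 1.

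The T-box gene Tbx20, a regulator of heart muscle, had 42.9, 135 and 87.7 CPM in bladder and 5.71, 21.5 and 12.9 CPM in urethral mesenchyme (2.72 ± 0.54, adjusted p = 0.00509). Tbx18, known from the mesenchyme around the ureter, had 31.8, 23.8 and 36.1 CPM and 11.3, 18.1 and 7.23 CPM (1.32 ± 0.29, adjusted p = 0.00715). Replicate 1 was the lowest library of each group for Tbx20, so that the groups kept apart while their members shifted together. Tbx3, a repressor that is active in many outgrowths, was higher in urethral mesenchyme, with 162, 131 and 85.4 CPM in bladder and 234, 269 and 274 CPM in urethra (-1.04 ± 0.20, adjusted p = 0.00326). Tbx4, a gene of the hindlimb and genital region, did not pass the test (29.8, 64 and 53.4 CPM against 49.1, 40.6 and 42.3 CPM, adjusted p = 0.692).

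Machinery for calcium and membrane potential also differed by member. Of 33 genes of calcium stores and pumps, 9 were higher in bladder (7 to 9 with 1 library left out) and 5 in urethral mesenchyme (3 without bladder replicate 2 or 3). Atp2a3, a pump that returns calcium to the store, had 45.7, 39.5 and 33 CPM in bladder and 9.04, 3.92 and 3.82 CPM in urethral mesenchyme (2.82 ± 0.30, adjusted p = 0.00013). Jph2, junctophilin, which ties the store to the surface membrane of muscle, had 242, 316 and 248 CPM and 105, 41.3 and 76.7 CPM (1.86 ± 0.30, adjusted p = 0.00133). The widely expressed pump gene Atp2a2 overlapped between the groups (297, 380.3 and 328 CPM against 336, 240.3 and 315 CPM, adjusted p = 0.541). Kcng1, a silent subunit that modifies voltage-gated potassium channels, had 60.3, 81.7 and 58.1 CPM in bladder and 15.1, 5.02 and 2.94 CPM in urethral mesenchyme, a difference of 3.12 ± 0.51 that was 4.05 without urethral replicate 1. Kcnj5, an inward rectifier known from the atria, was rare in both, with 3.15, 4.68 and 3.59 CPM and 0.265, 0.262 and 0.294 CPM (3.78 ± 0.46, adjusted p = 0.000225).

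**Figure D2:**
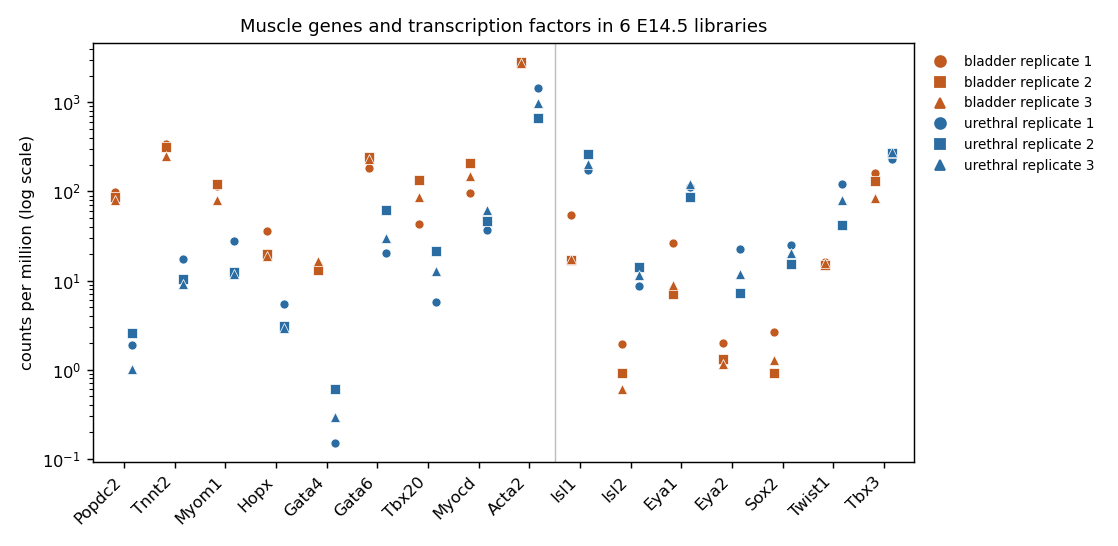
CPM (log axis) of 16 genes in each of the 6 libraries, bladder in orange and urethra in blue, with circles, squares and triangles for replicates 1, 2 and 3. In the 9 genes left of the line every bladder library lies above every urethral one, in the 7 to the right every urethral library lies above, and among the bladder libraries the circle of replicate 1 is the highest in all 7 of them.

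Transcription factors as a whole leaned toward the urethra. Over the families listed, zinc finger genes of the Zfp series aside, 254 genes were tested, of which 80 (31.5%) were higher in urethral and 24 (9.45%) in bladder mesenchyme, with a median difference of -0.35 against -0.0035 over all genes. The urethral count ranged from 56 to 98 with 1 library left out, and the bladder count fell to 15 without bladder replicate 2. With the length trend removed the counts were 76 and 30. Of 4 LIM homeobox genes 3 were higher in urethral mesenchyme, whichever library was left out.

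Eya1, a phosphatase that also acts as a partner of transcription factors, had 26.2, 7.04 and 8.87 CPM in bladder replicates 1 to 3 and 112, 86.5 and 120.2 CPM in the urethral replicates (-2.92 ± 0.42, or -3.76 without bladder replicate 1). Eya2 had 2.01, 1.33 and 1.17 CPM and 22.6, 7.27 and 11.8 CPM (-3.21 ± 0.37, adjusted p = 0.000185). In both genes bladder replicate 1 was the highest bladder library. Isl1, a LIM homeobox gene of the genital region and of the hindlimb, had 55.1, 16.8 and 17.6 CPM in bladder and 176, 262 and 204 CPM in urethral mesenchyme (-2.84 ± 0.41, or -3.65 without bladder replicate 1). Its groups did not overlap, although the bladder libraries differed among themselves more than the urethral ones did. Isl2, its close relative, had 1.92, 0.912 and 0.605 CPM and 8.77, 14.2 and 11.5 CPM (-3.33 ± 0.49, or -3.93 without bladder replicate 1).

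Of 18 Sox genes, 7 were higher in urethral mesenchyme (6 to 8 with 1 library left out) and none in bladder. Sox2, best known from stem cells, nerve and endoderm, had 2.65, 0.912 and 1.3 CPM in bladder and 24.9, 15.3 and 20.3 CPM in urethral mesenchyme (-3.64 ± 0.35, adjusted p = 6.06e-05). Sox9, which acts in cartilage and in many epithelia, had 12.7, 5.64 and 5.88 CPM and 23.9, 23.9 and 29.1 CPM (-1.67 ± 0.32, adjusted p = 0.00369). Both genes are also used outside mesenchyme. Summed epithelial and glial markers were higher in the urethral libraries on average (1166 to 2551 against 340.1 to 1882 CPM, and 177 to 299 against 94.8 to 179 CPM). The groups overlapped in both sums through bladder replicate 1. The part of epithelium and glia in these 2 results was not tested. Of 30 Forkhead genes, 11 were higher in urethral mesenchyme and 1 in bladder. Without bladder replicate 3 the urethral count was 7 and the bladder count 0, and without bladder replicate 1 the urethral count was 14. Foxd2, a factor of kidney stroma and other mesenchyme, had 6.63, 1.74 and 2.81 CPM and 40.6, 25.6 and 47.2 CPM (-3.35 ± 0.40, or -4.07 without bladder replicate 1). Foxf1, the general factor of visceral mesenchyme, did not differ by the test (124, 245 and 236 CPM against 236, 178 and 244 CPM, adjusted p = 0.732).

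Among 34 bHLH genes, 14 were higher in urethral mesenchyme, a count that was 9 without bladder or urethral replicate 3, and 3 in bladder. Twist1, a factor of early mesenchyme, had 16, 15 and 15.9 CPM in bladder and 121, 42.2 and 80.7 CPM in urethral mesenchyme (-2.38 ± 0.31, adjusted p = 0.000436). The 3 bladder libraries were nearly equal, while the urethral ones spread widely without reaching the bladder levels. Of 40 nuclear receptor genes, 11 were higher in urethral mesenchyme (6 without bladder replicate 3, 14 without bladder replicate 1) and 5 in bladder (2 without bladder replicate 2). Nr4a3, an orphan receptor induced rapidly by many stimuli, was higher in bladder with 19.6, 29.1 and 18.2 CPM against 2.23, 1.36 and 1.43 CPM (3.74 ± 0.52, adjusted p = 0.000577). Nr2f2, COUP-TFII, did not pass (184, 175 and 154 CPM against 207, 189 and 199 CPM, adjusted p = 0.157).

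Of 19 genes known from the mesenchyme of the genital tubercle, 14 were higher in urethral mesenchyme (12 to 16 with 1 library left out) and none in bladder, with a median difference of -1.58. Summed, they stood at 1317 to 1539 CPM in the urethral libraries and 436 to 506 CPM in the bladder libraries. Sall1, a zinc finger gene of kidney, limb and genital region, had 7.27, 2.65 and 0.389 CPM in bladder and 96, 66.3 and 85.5 CPM in urethral mesenchyme (-4.59 ± 0.85, or -5.76 without bladder replicate 1). Srd5a2, which makes dihydrotestosterone from testosterone, had 0.503, 1.62 and 0.173 CPM and 12.7, 4.81 and 8.41 CPM (-3.48 ± 0.65, or -4.66 without bladder replicate 2).

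Matrix genes were called on both sides. The 16 fibroblast markers, which include Lum and Mfap5 of the next paragraph, had 11 members higher in bladder (6 without urethral replicate 3) and 2 in urethral mesenchyme. They summed to 20478, 27162 and 20724 CPM in bladder and 13193, 8679 and 9156 CPM in urethra. The part of fibroblast number in the matrix results was not tested. Of 26 genes of collagen processing and cross-linking, 12 were higher in bladder, a count of at least 11 whichever library was left out, and 4 in urethral mesenchyme, a count that was 2 without bladder replicate 3 or urethral replicate 1. Sparc, which binds collagen and is made in quantity by fibroblasts, had 2288, 2283 and 2519 CPM in bladder and 1268, 859 and 747 CPM in urethral mesenchyme (1.30 ± 0.18, adjusted p = 0.000405). Adamts2 and Adamts14 both remove the amino-terminal propeptide of fibrillar procollagens. Adamts2 had 85.8, 99.1 and 85.6 CPM against 51.5, 24.2 and 17 CPM (1.55 ± 0.33, adjusted p = 0.0069). Adamts14 had 13.7, 23.5 and 13.5 CPM against 3.74, 6.59 and 2.64 CPM (1.96 ± 0.31, adjusted p = 0.00103). Tll1, a protease that removes the carboxy-terminal propeptide, was higher in urethral mesenchyme, with 4.11, 4.6 and 4.71 CPM in bladder and 23.5, 20.3 and 33.7 CPM in urethra (-2.53 ± 0.26, adjusted p = 8.87e-05).

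Nonfibrillar collagens went both ways. Of 26 such genes 6 were higher in bladder (3 without urethral replicate 2 or 3) and 8 in urethral mesenchyme (5 without bladder replicate 3). Col23a1, a transmembrane collagen, had 43.9, 30.7 and 26.8 CPM in bladder and 193, 139 and 165 CPM in urethral mesenchyme (-2.29 ± 0.29, adjusted p = 0.000377). Col6a4 had 2.93, 0.456 and 0.735 CPM and 36.6, 23.9 and 41.4 CPM (-4.64 ± 0.61, or -5.84 without bladder replicate 1). Elastic fibre genes were likewise split. Efemp1, fibulin 3, had 29.7, 17.4 and 24.7 CPM and 115, 66.1 and 82.9 CPM (-1.88 ± 0.23, adjusted p = 0.000256). Mfap5, a microfibril protein, was higher in bladder, with 47.6, 45.8 and 24.8 CPM and 18.8, 6.75 and 5.87 CPM (1.92 ± 0.39, or 2.64 without urethral replicate 1). Lum, a small proteoglycan that spaces collagen fibrils, had 347, 558 and 371 CPM in bladder and 114, 81.8 and 42.2 CPM in urethral mesenchyme (2.42 ± 0.32, adjusted p = 0.00046). Elastin itself, Eln, varied too widely between libraries to be called, with 1108, 235 and 718 CPM in bladder and 601, 314 and 208 CPM in urethra (adjusted p = 0.216), and passed only without bladder replicate 2 (1.29, adjusted p = 0.0351).

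Proteases and integrins added strong single genes. Of 19 matrix metalloprotease and Timp genes 5 were higher in bladder (4 to 7 with 1 library left out) and 2 in urethral mesenchyme (0 without bladder replicate 3 or urethral replicate 1, 6 without urethral replicate 2). Mmp9, gelatinase B, had 35, 102 and 58.9 CPM in bladder and 2, 4.74 and 3.34 CPM in urethral mesenchyme (4.26 ± 0.44, adjusted p = 0.000121). Mmp19, another secreted protease, had 14.4, 25.5 and 13.5 CPM and 1.48, 2.85 and 0.955 CPM (3.31 ± 0.39, adjusted p = 0.000223). Mmp2, gelatinase A, overlapped between the groups (470.3, 588 and 538 CPM against 711, 396 and 595 CPM, adjusted p = 0.767). Of 23 integrin genes 4 were higher in bladder (3 or 4 with 1 library left out) and 2 in urethral mesenchyme (1 without replicate 2 or 3 of either group, 4 without bladder replicate 1). Itgb3, the beta chain of the vitronectin receptor, had 52.9, 87.8 and 53.3 CPM in bladder and 9.34, 5.89 and 7.01 CPM in urethral mesenchyme (3.13 ± 0.32, adjusted p = 0.000128). Itga5, part of the fibronectin receptor, had 334, 408 and 288 CPM and 173, 118 and 147 CPM (1.24 ± 0.26, adjusted p = 0.00579).

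In each list of neurotrophic, guidance, cadherin and channel genes given here more members were higher in urethral mesenchyme than in bladder, although many did not pass the test, and the markers of neurons were higher there too. The 18 neuron markers summed to 2401, 1515 and 2006 CPM in the urethral libraries against 1060.0, 357 and 494 CPM in bladder. Of these markers 15 passed the test, all higher in urethral mesenchyme, but the count was 2 when bladder replicate 3 was left out and 17 when bladder replicate 1 was. Their median difference was -1.85, and -1.68 without bladder replicate 3, where urethral calls among the 18805 genes went from 2342 to 1252. Glial markers summed to 299, 177 and 221 CPM in urethra against 179, 106 and 94.8 CPM in bladder. The part of nerve tissue in the differences of this and the next paragraphs was not tested. Of 22 neurotrophic factors and receptors, 11 were higher in urethral mesenchyme (5 without bladder replicate 2) and 2 in bladder. Gdnf, a ligand that draws enteric and autonomic neurons, had 0.366, 1.16 and 0.519 CPM in bladder and 8.32, 5.31 and 6.09 CPM in urethra (-3.25 ± 0.58, or -3.88 without bladder replicate 2). Its receptor Gfra1 had 68.3, 22.8 and 25.8 CPM and 266, 169.6 and 309 CPM (-2.67 ± 0.43, or -3.37 without bladder replicate 1). Ret, the shared kinase of this receptor family, had 36.8, 14.7 and 22.9 CPM against 113, 73.6 and 99.4 CPM (-1.94 ± 0.49, adjusted p = 0.0158), and was not called without bladder replicate 2 (-1.67, adjusted p = 0.0604). Gfra2, the receptor for neurturin, had 23.8, 15 and 8.95 CPM and 129, 62.1 and 96.9 CPM (-2.59 ± 0.35, adjusted p = 0.000523).

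Eph receptors held up best among the guidance families. Of 14 tested, 8 were higher in urethral mesenchyme (7 or 8 with 1 library left out) and 2 in bladder, with a median difference of -1.22. Epha7 had 77.6, 101 and 74.6 CPM in bladder and 276, 228 and 339 CPM in urethral mesenchyme (-1.73 ± 0.19, adjusted p = 0.000129). Ephb1 ran against its family, with 30.4, 129.7 and 104 CPM in bladder and 21.2, 21.5 and 13.5 CPM in urethra (2.23 ± 0.44, adjusted p = 0.00476), and bladder replicate 1 was well below the other bladder libraries. Of the ligands, Efnb2 had 136, 79.6 and 80.1 CPM and 478, 336 and 467 CPM (-2.11 ± 0.26, adjusted p = 0.000263), while Efnb1 overlapped (129, 165 and 159 CPM against 165, 131 and 179 CPM, adjusted p = 0.766). Among 22 Slit, Robo, netrin and Dcc genes 7 were higher in urethral mesenchyme (6 to 8 with 1 library left out) and none in bladder. Robo2, a receptor for Slit proteins that is also used in kidney development, had 76.9, 84.1 and 64 CPM and 275, 249.9 and 333 CPM (-1.93 ± 0.20, adjusted p = 9.15e-05).

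Of 20 semaphorin genes 8 were higher in urethral mesenchyme (5 without bladder replicate 3) and 3 in bladder. Sema4f had 7.27, 4.64 and 7.09 CPM in bladder and 39.7, 28.7 and 44.6 CPM in urethra (-2.57 ± 0.29, adjusted p = 0.000151). Of 22 classical and type II cadherins 6 were higher in urethral and 1 in bladder mesenchyme, and the urethral count was 4 without bladder replicate 2 or 3 or urethral replicate 3. Cdh10, a type II cadherin of the nervous system, had 4.89, 2.73 and 2.29 CPM and 41.7, 18.2 and 34.8 CPM (-3.25 ± 0.37, adjusted p = 0.000166). Cdh11, the main cadherin of mesenchyme, overlapped at 539, 639 and 764 CPM against 624, 554 and 652 CPM (adjusted p = 0.673). Of 128 ion channel genes of all classes 47 (36.7%) were higher in urethral mesenchyme and 14 (10.9%) in bladder, with a median difference of -0.62. The urethral count was 21 without bladder replicate 2. Scn3a, a neuronal sodium channel, had 5.44, 2.69 and 3.55 CPM and 19.1, 29.1 and 29.8 CPM (-2.74 ± 0.34, adjusted p = 0.000257). Scn9a, known from sensory and sympathetic neurons, had 2.01, 1.33 and 1.73 CPM and 8.13, 6.83 and 9.29 CPM (-2.26 ± 0.36, adjusted p = 0.00105).

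**Figure D3:**
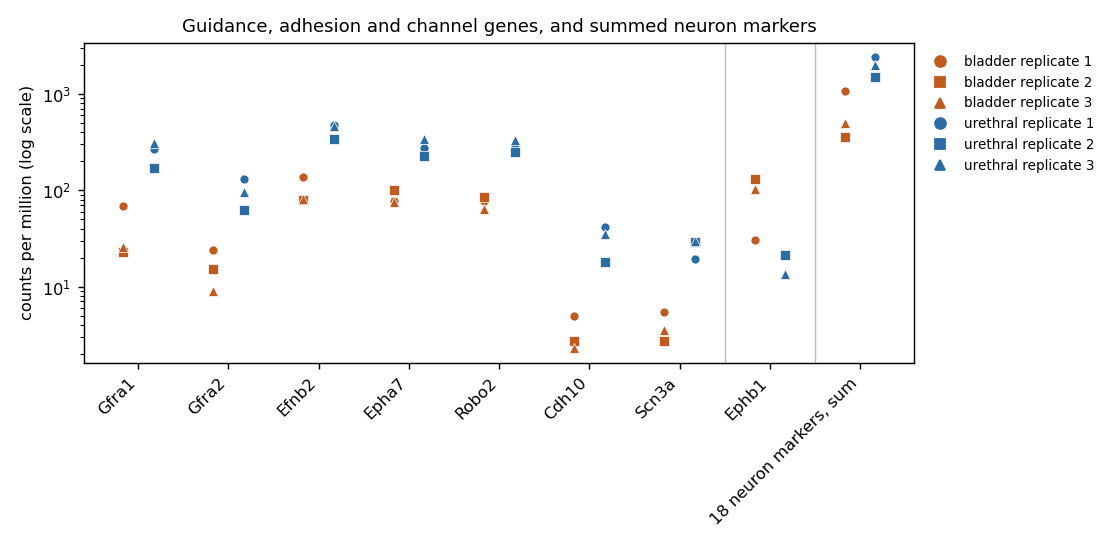
CPM (log axis) in each of the 6 libraries of 7 genes higher in urethral mesenchyme, of Ephb1, which was higher in bladder, and of the sum of 18 neuron markers, with bladder in orange, urethra in blue and circles, squares and triangles for replicates 1, 2 and 3. The neuron markers sum to between 1515 and 2401 CPM in urethra and between 357 and 1060.0 CPM in bladder, where the circle of replicate 1 is highest.

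Both subunits of soluble guanylyl cyclase, the receptor through which nitric oxide relaxes smooth muscle, were higher in the urethra. Gucy1a1 had 105, 62.2 and 109 CPM in bladder and 459, 234 and 365 CPM in urethral mesenchyme (-1.94 ± 0.24, adjusted p = 0.000287). Gucy1b1 had 39.6, 34.9 and 36.7 CPM and 123, 88.6 and 106 CPM (-1.51 ± 0.16, adjusted p = 0.000121). Neither gene's groups overlapped, and both ran against the smooth muscle markers. Of the 30 phosphodiesterase and guanylyl cyclase genes as a whole 6 (20%) were higher in bladder mesenchyme and 7 (23.3%) in that of the urethra. The urethral count was 4 without bladder replicate 3. Ednra, an endothelin receptor of smooth muscle and of cranial mesenchyme, also ran against those markers, with 69.3, 35.9 and 43 CPM in bladder and 218, 125 and 192 CPM in urethra (-1.85 ± 0.26, adjusted p = 0.000532).

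Imprinted genes, many of which act on fetal growth, leaned toward the bladder. Of 38 imprinted genes 15 (39.5%) were higher in bladder, a count of at least 11 whichever library was left out, and 3 in urethral mesenchyme (1 without bladder replicate 2 or 3 or urethral replicate 3). Dlk1, a membrane relative of Notch ligands that keeps precursor cells from differentiating, had 1064, 1067 and 1086 CPM in bladder and 256, 208 and 214 CPM in urethral mesenchyme (2.25 ± 0.17, adjusted p = 2.09e-05). Rtl1, its neighbour, had 22.2, 18.9 and 12.5 CPM and 3.48, 5.29 and 3.08 CPM (2.16 ± 0.24, adjusted p = 0.000149). The bladder values of Dlk1 were almost identical in the 3 libraries. H19, a noncoding RNA, had the largest difference per length of the named genes, with mean values of 1681 and 789 RPKM (CPM per kilobase of exon) in bladder and urethra. It had 4229, 3914 and 4264 CPM in bladder and 2105, 1720.3 and 1999 CPM in urethra (1.09 ± 0.13, adjusted p = 0.000181). Igf2, a fetal growth factor imprinted in the same domain, had 205, 301 and 246 CPM and 63, 92.4 and 84.1 CPM (1.65 ± 0.17, adjusted p = 8.76e-05), although its exons overlap another gene on the same strand and reads from the pair may have been split. Gnas, another imprinted gene, overlapped (1577, 1737 and 1627 CPM against 1693, 1093 and 1388 CPM, adjusted p = 0.308).

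Other ligands and receptors were split between the compartments. Pdgfra, a growth factor receptor of fibroblast precursors, had 263, 285 and 214 CPM in bladder and 752, 551 and 785 CPM in urethral mesenchyme (-1.45 ± 0.18, adjusted p = 0.000225). Inhba, the subunit of activin A, had 30.9, 10.6 and 14.6 CPM and 69.4, 65.2 and 59.1 CPM (-1.79 ± 0.38, adjusted p = 0.00711). Tgfbr3, a co-receptor that presents TGF-beta and binds inhibin, was higher in bladder, with 49.9, 73.9 and 43.5 CPM and 19.3, 19.5 and 17.2 CPM (1.58 ± 0.19, adjusted p = 0.000193). A chemokine, a chemokine receptor and a pair of Notch ligands were higher in urethra. Cxcl14 had 18.4, 14.8 and 18.4 CPM against 118, 60.9 and 75.4 CPM (-2.30 ± 0.27, adjusted p = 0.000222), and Ackr3, a receptor that removes chemokines, had 49.8, 39.4 and 59.4 CPM against 156, 134 and 125 CPM (-1.48 ± 0.18, adjusted p = 0.000229). The Notch ligand Jag2 had 26, 15.7 and 11.2 CPM against 54.3, 45.1 and 40.6 CPM (-1.40 ± 0.27, adjusted p = 0.00332), and Dll1 had 4.75, 3.15 and 2.21 CPM against 10.7, 8.58 and 9.47 CPM (-1.51 ± 0.27, adjusted p = 0.00199).

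Of 20 angiogenic growth factors and receptors 7 were higher in bladder (4 without bladder replicate 3 or urethral replicate 2 or 3) and 1 in urethral mesenchyme. Vegfd, a growth factor for lymphatic and blood vessels, had 28.8, 25.1 and 22.8 CPM in bladder and 6.2, 9 and 4.66 CPM in urethral mesenchyme (1.94 ± 0.24, adjusted p = 0.000278). Angptl6, a secreted relative of the angiopoietins, had 11.7, 17.8 and 10.9 CPM and 3.86, 3.14 and 2.68 CPM (2.06 ± 0.30, adjusted p = 0.000594). Kdr, the main VEGF receptor of endothelium, did not pass the test (85.1, 181 and 94.3 CPM against 93.9, 67.1 and 98.6 CPM, adjusted p = 0.189). Of 18 endothelial markers 6 were higher in bladder (5 to 8 with 1 library left out) and 1 in urethra, and they summed to 864, 1306 and 1006 CPM in bladder against 875, 601 and 712 CPM in urethra, values that overlap through bladder replicate 1 and urethral replicate 1. Lyve1, found on lymphatic vessels and some macrophages, had 27.2, 38.5 and 25.9 CPM in bladder and 2.53, 2.56 and 2.35 CPM in urethra (3.62 ± 0.33, adjusted p = 5.5e-05). Of 18 leukocyte markers 8 were higher in bladder (3 without bladder replicate 3 or urethral replicate 2, 11 without urethral replicate 1), among them Mrc1, a receptor of tissue macrophages, with 56.5, 82.5 and 55.9 CPM against 21.6, 14.5 and 23.1 CPM (1.72 ± 0.21, adjusted p = 0.000243).

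Genes of basic cell functions formed the broadest lean toward the bladder, made of small differences. Of 81 nuclear subunits of the respiratory chain 49 (60.5%) were higher in bladder and none in urethral mesenchyme, with a median difference of 0.48, and of 83 ribosomal protein genes 36 (43.4%) were higher in bladder and none in urethra, with a median of 0.43. Without bladder replicate 3 these counts were 18 and 10, and with the 6 libraries fitted alone 26 and 18. Among the 18805 genes, calls for bladder went from 2335 to 1456 and 1384 in these fits. The class medians without bladder replicate 3 were 0.44 and 0.38. Uqcr11, a subunit of complex III, had 107, 74.9 and 86.8 CPM in bladder and 43.6, 55 and 42.9 CPM in urethral mesenchyme (0.92 ± 0.18, adjusted p = 0.00362). Rps2, of the small ribosomal subunit, had 621, 736 and 811 CPM and 382, 407 and 495 CPM (0.76 ± 0.14, adjusted p = 0.00307), although processed pseudogenes of such genes can take some of their reads. Of 77 mitochondrial ribosomal protein genes 21 were higher in bladder (7 without bladder or urethral replicate 3) and none in urethra.

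Genes of DNA replication and mitosis followed, with 23 of 44 (52.3%) higher in bladder and 1 in urethra. The bladder count was 12 when bladder replicate 3 was left out and 32 when bladder replicate 1 was. Tk1, the thymidine kinase of dividing cells, had 108, 113 and 134 CPM in bladder and 56.3, 71.4 and 53.7 CPM in urethral mesenchyme (0.97 ± 0.13, adjusted p = 0.000479). The exception was Ccnd2, cyclin D2, with 330.02, 284 and 304 CPM against 528, 522 and 739 CPM (-0.96 ± 0.16, adjusted p = 0.00159). Of 23 genes of cholesterol synthesis and uptake 12 (52.2%) were higher in bladder (4 without urethral replicate 3) and none in urethra. Mvk, mevalonate kinase, had 61.7, 67.1 and 69.8 CPM and 43.3, 39.9 and 41.2 CPM (0.68 ± 0.11, adjusted p = 0.00151). Insig1, which holds back this pathway when sterols are plentiful, had 71.9, 83.6 and 96.7 CPM and 41.8, 50.4 and 39.2 CPM (0.94 ± 0.14, adjusted p = 0.000718).

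The opposite lean was found in genes of gene regulation. Of 367 Zfp genes 68 were higher in urethral mesenchyme and 8 (2.18%) in bladder, with a median of -0.27, and the urethral count was 24 without urethral replicate 3. Zfp469 was an exception, higher in bladder with 35.1, 63.1 and 44.3 CPM against 9.64, 17.9 and 14.2 CPM (1.77 ± 0.28, adjusted p = 0.00101). Of 75 chromatin regulators 16 (21.3%) were higher in urethra and 2 in bladder, and the urethral count was 7 without bladder replicate 3 and 24 without urethral replicate 1. Kdm6a, a histone demethylase gene of the X chromosome, had 65.6, 74.1 and 69.3 CPM in bladder and 113, 118 and 125 CPM in urethral mesenchyme (-0.77 ± 0.10, adjusted p = 0.000382). Chd7, a nucleosome remodeller, had 17.8, 18.48 and 10.3 CPM and 34.3, 43.7 and 53.9 CPM (-1.50 ± 0.23, adjusted p = 0.000888).

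The comparison as a whole moved with transcript length. Genes were put into 10 bins of equal size by the summed length of their exons. In the bin of the shortest genes (median 613 bases) the median difference was 0.34, and it fell step by step to -0.22 in the bin of the longest (median 11788 bases). The share of genes higher in urethral mesenchyme went from 2.23% in the shortest to 24.7% in the longest. Without replicate 1 of both groups the medians of the end bins were 0.33 and -0.28. The trend was also removed from each library. It was estimated from all tested genes, members of these classes included, so its part in the class counts was not tested. With the trend removed, 34 respiratory chain, 20 ribosomal protein, 26 replication and 12 cholesterol genes were still higher in bladder. No respiratory chain, ribosomal protein or cholesterol gene was higher in urethra, while 47 of 367 Zfp genes and 8 of 75 chromatin regulators were. In that fit 12.6% of all genes were called for bladder and 10.5% for urethra. The urethral shares of the Zfp and chromatin lists were close to that 10.5%. The replication and cholesterol counts for bladder were 23 and 12 before. The median of the chromatin regulators went from -0.27 to -0.07. The smooth muscle count was 18 with the trend removed. Processed pseudogenes, which are short copies of messenger RNAs, had a median of 0.39 over 1253 genes, with 62 (4.95%) higher in bladder and 5 (0.399%) in urethra. Genes of long intergenic noncoding RNA had a median of -0.35 over 500 genes, with 31 (6.2%) and 59 (11.8%). These shares all lie below the 12.4% and 12.5% over all genes, so neither kind was called more often than genes at large.

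**Figure D4:**
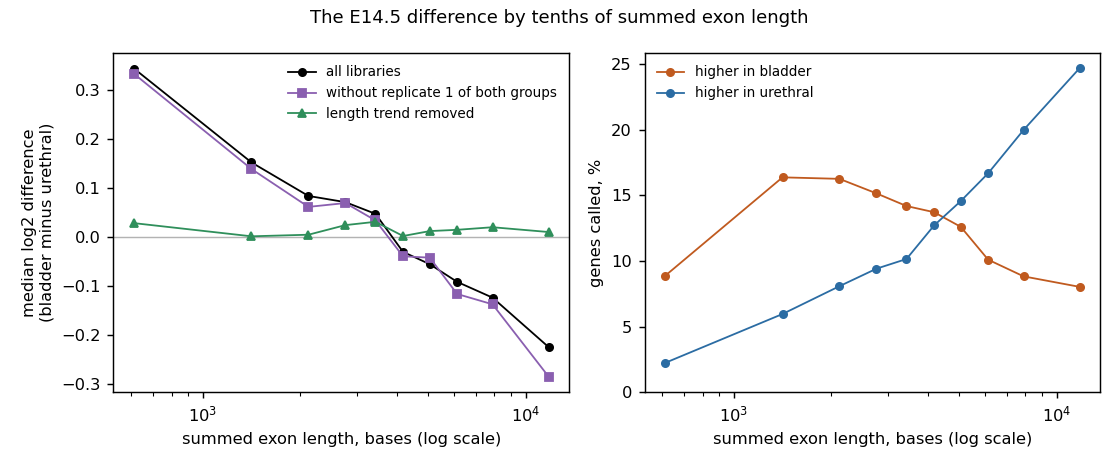
Left, median log2 difference (bladder minus urethral) in 10 equal bins of genes ordered by summed exon length in bases (log axis), with all libraries (black), without replicate 1 of both groups (purple) and with the length trend removed (green). Right, the share of genes in each bin called higher in bladder (orange) or urethra (blue), which for urethra rises from 2.23% to 24.7%.

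Markers of other cell types were counted in the same way. Of 26 epithelial markers 7 were higher in urethral mesenchyme and 2 in bladder, and the urethral count was 2 when bladder replicate 2 was left out and 18 when bladder replicate 1 was, while the bladder count was 0 without bladder replicate 1 or urethral replicate 2 or 3. Krt8, a keratin of simple epithelium, overlapped between the groups (312, 94.7 and 58.8 CPM against 143, 91.7 and 104 CPM, adjusted p = 0.536). Of 13 cartilage markers 6 were higher in urethra (2 without bladder replicate 3), with Col2a1, the main collagen of cartilage, at 8.55, 5.84 and 2.68 CPM in bladder and 26.5, 50.3 and 57.9 CPM in urethra (-2.98 ± 0.49, adjusted p = 0.00164). Of 15 nephric and Mullerian duct markers 7 were higher in urethra (3 without bladder replicate 2). The median of this list was only -0.03, and some members, such as Sall1, are also among the genital tubercle genes counted above. Of 13 red blood cell markers 5 were higher in bladder (2 without urethral replicate 3). Of 11 mesothelial markers 5 were higher in bladder (5 or 6 with 1 library left out) and 1 in urethra. Among them Upk3b, an uroplakin of mesothelium and urothelium, had 241, 63.8 and 180.5 CPM in bladder and 3.74, 7.25 and 4.22 CPM in urethra (4.98 ± 0.59, adjusted p = 0.00037), and Muc16, a large mucin of such surfaces, had 26.6, 4.89 and 14.1 CPM against 0.151, 0.68 and 0.477 CPM (5.05 ± 0.75, or 4.35 without bladder replicate 1). Lrrn4, a membrane protein gene of the same list, had 69, 13.1 and 51.5 CPM against 1.02, 1.88 and 2.61 CPM (4.59 ± 0.68, adjusted p = 0.00113). Of 9 pericyte markers 3 were higher in urethra (2 to 4 with 1 library left out) and none in bladder, where 1 was called without bladder replicate 3 or urethral replicate 1. None of 7 gut tube markers was called, and they summed to at most 9.3 CPM. The part of these cell types in other results was not tested.

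Where a class had no member called in a direction, other readings of the same data gave few. With edgeR's test at an unadjusted p under 0.05, 1 Sox gene, 1 neuron marker, 1 cartilage marker and 2 pericyte markers were higher in bladder. The same was so for 1 gene among the FGF receptors and feedback genes. In urethra 1 proteasome subunit was higher, and 1 gut tube marker was higher in each compartment. None was found for the smooth muscle, ribosomal, respiratory chain, mitochondrial ribosomal and cholesterol genes in urethra, nor for the LIM homeobox, Slit and Robo, and genital tubercle genes in bladder. Among these lists and directions, DESeq2 called 1 Sox gene and 1 pericyte marker in bladder and limma-voom called 1 pericyte marker.

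Replicate 1 was read gene by gene because it lay apart on the second principal component in both groups. In bladder, 2256 genes were over 2-fold higher in replicate 1 than in the mean of the other libraries and 352 were over 2-fold lower, against 343 and 1184 for replicate 2 and 299 and 1238 for replicate 3. In urethra the counts for replicate 1 were 1065 and 755, against 1357 and 686 for replicate 2 and 229 and 957 for replicate 3. Log2 CPM of urethral replicate 3 correlated at 0.980 with replicate 1 and 0.978 with replicate 2. By these measures urethral replicate 1 was not set apart from its group more clearly than replicate 2. The 2 first replicates went the same way in 467 genes that were higher and 65 that were lower. A comparison of 1 library with the others allows no test, and the labels do not say that the 2 first replicates share a litter. The median variance of log2 CPM over genes was 0.0530 in bladder and 0.0268 without replicate 1, and 0.0710 in urethra and 0.0484 without replicate 1. At E18.5 it went from 0.0554 to 0.0279 in bladder and from 0.0259 to 0.0155 in urethra. A variance from fewer libraries has a lower median by itself, and leaving out replicate 2 or 3 was not measured. These values therefore do not show that replicate 1 carries the spread.

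Among the genes that moved most with replicate 1 were some known from muscle, epithelium, connective tissue and embryonic blood. Acta1, skeletal muscle actin, had 238, 17.7 and 10.1 CPM in bladder and 17.4, 0.471 and 1.36 CPM in urethral mesenchyme, with replicate 1 far above the others in both. Its difference of 3.81 ± 1.33 did not pass (adjusted p = 0.0596), but did without urethral replicate 1 (6.66, adjusted p = 0.0151) or bladder replicate 3 (4.34, adjusted p = 0.0387). Krt4, a keratin of stratified epithelium, had 24.5, 4.85 and 1.77 CPM and 237, 27.7 and 40.7 CPM. Its call (-3.30 ± 0.96, adjusted p = 0.0302) was lost without bladder replicate 2 (-2.96), bladder replicate 3 (-2.80) or urethral replicate 1 (-1.72, adjusted p = 0.134), and the difference was -4.95 without bladder replicate 1. Dpt, dermatopontin of connective tissue, had 18, 2.86 and 1.73 CPM and 7.07, 1.54 and 0.587 CPM and was not called (adjusted p = 0.303). In the other direction, Hbb-y, an embryonic globin of the first red cells, had 16.2, 149.8 and 132 CPM in bladder and 7.41, 175 and 76.8 CPM in urethra, and Hba-x, its alpha-type partner, 7.04, 25.9 and 18.9 CPM and 2.04, 34.9 and 12.8 CPM. Both embryonic globins were lowest in replicate 1 of either group and neither was called (adjusted p = 0.897 and 0.969). Adult-type globin did not share this pattern: Hbb-bs had 782, 497 and 634 CPM in bladder, highest in replicate 1, and 365, 389.6 and 279 CPM in urethra. Its difference of 0.89 ± 0.24 (adjusted p = 0.0194) lost its call without bladder replicate 1 (0.70), bladder replicate 3 (0.89) or urethral replicate 3 (0.76).

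Genes higher in 1 compartment moved with replicate 1 as well. Tbx20 and Mmp9, described above, were among the 8 genes with the largest shift to lower levels in both first replicates. Asb4, an imprinted gene that encodes part of a ubiquitin ligase, had 50.1, 211 and 189 CPM in bladder and 8.28, 33.2 and 13 CPM in urethral mesenchyme, lowest in replicate 1 of each group (3.04 ± 0.57, or 3.81 without urethral replicate 2). Krt5, a keratin of basal epithelial cells, had 42.7, 3.73 and 2.12 CPM and 499, 136 and 199 CPM, highest in replicate 1 of each (-4.11 ± 0.98, or -6.58 without bladder replicate 1 and -3.38 without urethral replicate 1). Leaving out replicate 1 of both groups changed the class counts unequally. The ribosomal and respiratory chain counts for bladder went from 36 and 49 to 14 and 23, and the count of epithelial markers for urethra from 7 to 17. The counts of smooth muscle genes (16) and of Eph receptors (8) were the same without these 2 libraries.

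**Figure D5:**
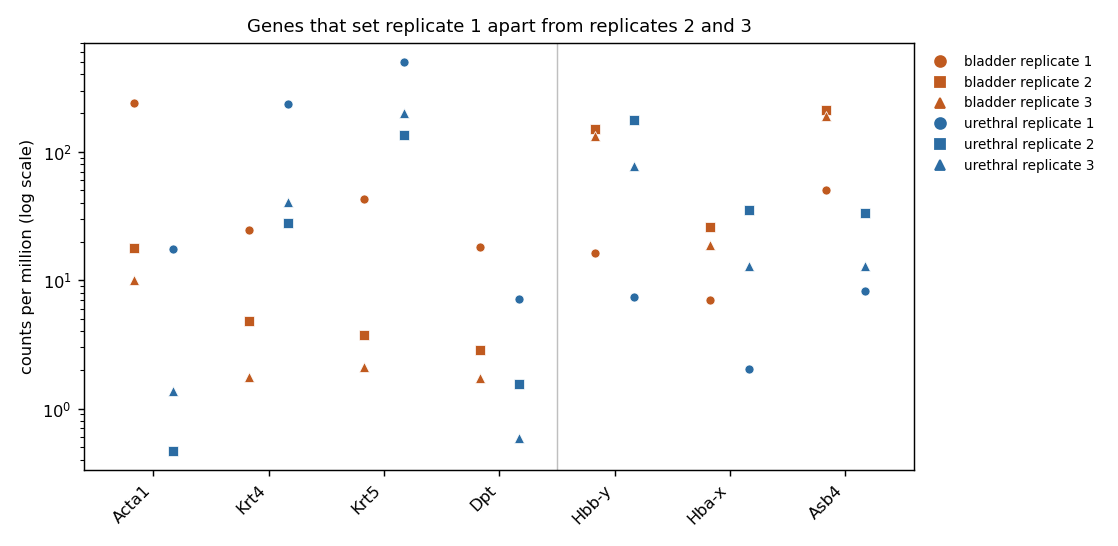
CPM (log axis) of 7 genes in the 6 libraries, bladder in orange and urethra in blue, with circles, squares and triangles for replicates 1, 2 and 3. The circles of replicate 1 lie highest in their group for the 4 genes left of the line and lowest for the 3 to the right, as with Acta1 at 238 CPM in bladder replicate 1 and Hbb-y at 16.2 CPM.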

How the data were processed

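RNA from mesenchyme was sequenced from poly(A) libraries with paired reads of 100 bases. The authors deposited a count per gene and library. Per the submitters' processing notes, HISAT2 2.2.1, SAMtools 1.9, bcl2fastq and the build GRCm38 were used, while the counting tool, strand setting and annotation are not given in the sources used here. The value 2 is 2.06 to 2.51 times as frequent as 1 in these deposited counts, so pairs may have been counted as 2 reads, and precision is lower than the totals (21495169 to 34221907) imply.

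Here edgeR 4.0.16 (R 4.3.3) was used with filterByExpr at a minimum count of 10, TMM scaling, and a robust quasi-likelihood fit of 4 group means over all 12 libraries (8 residual degrees of freedom). Benjamini-Hochberg adjustment ran over all 18805 genes and calls were made at 0.05. Labels give 3 independent litters as replicates, and each litter gave both tissues, but numbers are not tied to litters. Log2 CPM used a prior count of 2. RPKM is CPM per kilobase of summed exons in the files. Biotypes came from GENCODE vM21 (18565 genes matched), strand overlap from the exon coordinates deposited with the counts (bedtools 2.31.1), and promoters from RefSeq. The length trend was a lowess curve of log2 CPM on exon length (span 0.3, 3 iterations), removed per library through offsets. Alternatives were DESeq2 1.42.0, limma-voom 3.58.1, other scalings, filters, sample sets and a replicate block. The code was tested on simulated data.

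The members and gene lists were chosen with earlier results of these data known, and lists therefore carry no test. Named genes are, per direction, the 15 largest differences with at least 5 CPM and no overlap, the 10 largest in RPKM, up to 4 per class with 1 uncalled member, and 8 that moved most with replicate 1, of which the text gives a part. Some genes of these lists are not reported here.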

Additional observations from a re-analysis of the deposited data

How the results depend on the processing

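Under 17 alternatives the 98 called genes whose values are given kept their direction, and 93 of them their call. Of the 18 given that were not called, 9 changed sign under at least 1 alternative. Counts depended on which libraries entered. Genes higher in E14.5 bladder mesenchyme numbered 1384 with the 6 libraries fitted alone. Leaving out 1 library gave 1403 to 2165 genes higher in E14.5 bladder mesenchyme and 1261 to 2729 genes higher in E14.5 urethral mesenchyme, the highest without bladder replicate 1. Without replicate 1 of both groups the counts were 2219 and 2842, with the length trend removed 2369 and 1978, with DESeq2 2719 and 2827, and with limma-voom 2291 and 2306. With the replicate number as a block within each stage they were 2327 and 2468, and with the replicate block and the 6 libraries alone 1250 and 1705. That last fit called 2 ribosomal protein and 16 respiratory chain genes higher in bladder. Deviations of same-numbered libraries correlated at 0.19, -0.03 and 0.21 across genes, and those of unlike-numbered libraries at -0.27 to 0.13. Replicates 1 and 3 thus correlated most with the library of their own number, and replicate 2 did not. These values do not settle which libraries share a litter. The main fit used no pairs because the labels do not tie numbers to litters, and the block fits give the paired reading. Totals ranged from 21495169 to 34221907 counts over the 6 libraries, and the number of libraries, 3 a group, limits what small differences can be called.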

Other observations

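Genes of the interferon response and antigen presentation, which no comparison above describes, leaned toward the bladder at low levels. Of 26 tested, 12 were higher in bladder (7 without urethral replicate 3) and 1 in urethral mesenchyme, with a median log2 difference of 0.57 by edgeR. Psmb8, a subunit of the immunoproteasome, had 2.97, 2.49 and 2.38 CPM in bladder replicates 1 to 3 and 1.4, 0.837 and 0.844 CPM in the urethral replicates (1.35 ± 0.29, adjusted p = 0.00574). Usp18, which restrains interferon signalling, was the exception, with 0.274, 0.497 and 0.259 CPM in bladder and 2.69, 2.43 and 2.42 CPM in urethra (-2.85 ± 0.33, adjusted p = 0.000171). Leukocyte markers summed to 223 to 264 CPM in bladder and 109 to 182 CPM in urethra, and their part in this lean was not tested.

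Fatty acid and fat storage genes followed, with 11 of 24 higher in bladder (7 without urethral replicate 2 or 3) and 1 in urethra (0 without bladder replicate 2 or 3, 3 without bladder replicate 1). Fabp4, a carrier of fatty acids in fat cells, capillaries and macrophages, had 17.1, 8.58 and 7.22 CPM in bladder and 1.21, 0.837 and 0.955 CPM in urethral mesenchyme (3.46 ± 0.70, adjusted p = 0.00574). Itm2a, a membrane protein gene of the X chromosome, was among the genes with the largest difference per length, with 902, 815 and 1053 CPM against 155, 307 and 127 CPM (2.23 ± 0.35, adjusted p = 0.0012).

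Xist, the RNA that silences 1 X chromosome in females, had 538, 329.8 and 258 CPM in bladder and 309.9, 1697 and 484 CPM in urethral mesenchyme. Urethral replicate 2 lay far above the other libraries. The difference between the groups was not called (adjusted p = 0.137) and passed without urethral replicate 1 (-1.54, adjusted p = 0.0393). Xist was chosen after its values were seen.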
